A study of Rattus norvegicus with 6 samples.

Results

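Collagen chains are modified and folded inside the endoplasmic reticulum (ER) before they are secreted, and 10 genes of this machinery were examined in rat chondrocytes with and without retinoic acid (RA). They were the prolyl 4-hydroxylase subunits P4ha1, P4ha2, P4ha3 and P4hb, the lysyl hydroxylases Plod1, Plod2 and Plod3, the collagen chaperone Serpinh1, and Crtap and Ppib of the prolyl 3-hydroxylation complex. The genes were listed by name with earlier results of these data known, and 9 of the 10 were found by that name among the 18923 identifiers of the files. The files hold no gene called Crtap. The symbol Crtapl1, which RefSeq lists as a synonym of Crtap in the rat assembly GRCr8, was used in its place and is kept here as the name. Each of the 10 had enough counts to enter the test, which covered 13438 genes.

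The cells were primary chondrocytes of wild-type female Sprague-Dawley rats, 24 h old, freed from cartilage with type II collagenase and used at passage 1 or 2. The 3 CON samples were kept for 24 h in high-glucose DMEM with 10% FBS and 1% penicillin-streptomycin, and the 3 RA samples in the same medium with 1 µM all-trans retinoic acid, an active form of vitamin A. The samples of each group are described as independent, but which litter or culture each came from is not given, so p-values measure the spread between these samples only. There was 1 dose and 1 time.

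Prolyl 4-hydroxylase, a tetramer of P4ha catalytic subunits and P4hb (protein disulfide isomerase), hydroxylates prolines along the chain, and these hydroxyl groups hold the collagen triple helix together at body temperature. Lysyl hydroxylases make the hydroxylysines that carry sugars and take part in cross-links, and both kinds of enzyme need iron, 2-oxoglutarate and ascorbate. Serpinh1 (HSP47) binds the folded triple helix in the ER, while Crtap, P3h1 and Ppib (cyclophilin B) form a complex that 3-hydroxylates single prolines and speeds the turning of proline bonds. Cartilage depends on this machinery because type II collagen is its main fibre, and inherited loss of Crtap, P3h1, Ppib, Serpinh1 or Plod2 causes bone fragility syndromes.

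Of the 10 genes, Serpinh1 and Crtapl1 were lower in RA and none was higher. The other 8 did not pass the test, and no gene reached the fold change of a differentially expressed gene (DEG). A gene was called when edgeR's quasi-likelihood test gave a Benjamini-Hochberg adjusted p below 0.05 over all genes, and a DEG also needed a log2 fold change beyond 0.58. In the whole series 9.82% of genes were called, 4.50% were called lower and 4.96% were DEGs, against 2, 2 and 0 of these 10 genes. At an unadjusted p below 0.05 the count was 4 of 10, beside 24.0% of all genes. No alternative fit, DESeq2 included, made any of the 10 a DEG. The median log2 fold change of the 10 was -0.11, beside -0.006 over all genes tested. Of the 10 values, 8 lay below 0, beside 51.1% of all genes tested.

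Total counts ran from 29370025 to 38007486 per sample, and P4ha3, the lowest of the 10 genes, had at least 1728 counts in each sample. CON sample 1 stood apart from the other samples. The chi-square per degree of freedom between samples of the same group was 39.6 and 63.3 for its pairs with the other CON samples, and 6.53 to 8.25 for all other pairs. Levels are given in FPKM, which scales counts by gene length and sample total and so allows comparison between genes, and means are given ± SD over the 3 samples of a group (n = 3). Several results are also given without CON sample 1. Of the 9 chondrocyte markers, all were detected and all were called lower in RA, and their summed level was 6587 to 8614 FPKM in CON, lowest in CON sample 1, and 4121 to 4445 in RA. Among markers of other cell types, 7 macrophage genes summed to 13.2 to 14.8 FPKM in CON and 16.1 to 17.5 in RA, and 6 skeletal muscle genes to 4.08 to 5.61 and 2.58 to 3.80. The muscle sum was mostly Tnnt3, called lower with means of 4.71 and 2.36 FPKM, while Myod1 was called higher at 0.0932 and 0.366 FPKM. For 6 osteoblast genes the sums were 8.25 to 9.56 and 8.27 to 8.52 FPKM, mostly Alpl, which was called lower (log2 fold change -0.42), while Ibsp was called higher (1.47). The 5 endothelial genes, of which Emcn had no count, summed to at most 0.214 FPKM in any sample. The 6 fibroblast markers summed to 178 to 195 FPKM in CON and 188 to 205 in RA, mostly Col14a1 and Gsn, which were not called. Of these 6 only Clec3b was called in edgeR, lower at -1.57, and the median log2 fold change was -0.34. The part of these marker shifts in the results below was not tested, and in these bulk samples fewer cells of a type and less RNA per cell cannot be told apart. As a check of the treatment, Cyp26b1, a retinoic acid hydroxylase that RA is known to induce, was at 1.51 ± 0.187 FPKM in CON and 9.52 ± 0.916 in RA. It was called higher, at 2.65 on the log2 scale (adjusted p = 1.18e-05, edgeR).

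The 250 bases before the RefSeq transcription start are shown for the 2 called genes and for P4hb and Plod2, which were called when CON sample 1 was left out. They were taken from the GRCr8 table of RefSeq promoters, a newer build than the one named for the counts, and run 5′ to 3′ on the gene's strand. Capitals mark any match, on either strand, to 4 motifs: ACGTG (the core of a hypoxia response element), CCAAT (the CCAAT box), GAANNTTC (the core of a heat shock element, the same on both strands) and AGGTCA (a nuclear receptor half-site). No matches overlapped in these 4 sequences.
Serpinh1, chr1:163062977-163063226, minus strand: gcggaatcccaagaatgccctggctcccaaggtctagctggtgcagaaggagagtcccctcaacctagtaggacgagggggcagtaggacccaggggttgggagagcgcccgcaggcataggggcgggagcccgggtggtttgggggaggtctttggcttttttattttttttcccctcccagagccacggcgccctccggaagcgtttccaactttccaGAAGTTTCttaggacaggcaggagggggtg
Crtap, chr8:122945844-122946093, minus strand: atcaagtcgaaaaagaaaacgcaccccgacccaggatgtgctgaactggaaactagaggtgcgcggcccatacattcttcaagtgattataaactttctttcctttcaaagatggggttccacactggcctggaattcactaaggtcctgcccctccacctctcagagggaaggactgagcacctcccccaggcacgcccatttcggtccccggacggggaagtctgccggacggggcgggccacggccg
P4hb, chr10:106346912-106347161, minus strand: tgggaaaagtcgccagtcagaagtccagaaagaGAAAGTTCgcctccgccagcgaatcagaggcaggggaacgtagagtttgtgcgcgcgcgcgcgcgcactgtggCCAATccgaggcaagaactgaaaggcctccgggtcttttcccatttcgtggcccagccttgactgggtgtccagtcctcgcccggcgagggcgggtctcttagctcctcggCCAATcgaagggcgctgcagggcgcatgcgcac
Plod2, chr8:101964068-101964317, plus strand: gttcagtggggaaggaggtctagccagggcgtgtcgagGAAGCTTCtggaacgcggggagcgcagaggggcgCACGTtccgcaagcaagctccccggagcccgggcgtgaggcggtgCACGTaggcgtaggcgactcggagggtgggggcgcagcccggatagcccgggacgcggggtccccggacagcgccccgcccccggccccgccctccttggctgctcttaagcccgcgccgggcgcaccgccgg
The Serpinh1 sequence held 1 match, to GAANNTTC, whose first base lay 30 bases before the start, and the Crtap sequence held none of the 4. P4hb held 2 CCAAT matches and 1 GAANNTTC match. Plod2 held 2 ACGTG matches and 1 GAANNTTC match. Over the 10 genes, GAANNTTC was found in 4 (P4hb, Plod1, Plod2 and Serpinh1) beside 7.23% of 33469 promoters of this length, and ACGTG in 3 (P4ha2, Plod2 and Ppib) beside 16.6%. CCAAT was found in 2 (P4hb and Ppib) beside 34.0%, and AGGTCA in 2 (Plod1 and Plod3) beside 14.1%. These are matches of letters in 1 window, and the data hold no measurement of binding.

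Serpinh1 (ENSRNOG00000016831) was the most abundant of the 10 genes and ranked 22 of 13438 in mean CON level. Its level was 1727, 1954 and 1961 FPKM in CON samples 1, 2 and 3, and 1551, 1629 and 1598 FPKM in RA samples 1, 2 and 3. All RA values lay below all CON values, with the smallest gap to CON sample 1. The means were 1880.4 ± 133 and 1593 ± 39.4 FPKM, and the log2 fold change was -0.25 (standard error 0.0619, 95% confidence interval -0.39 to -0.11, adjusted p = 0.038, edgeR with Benjamini-Hochberg adjustment). The level thus fell by 16.0%. With CON sample 1 left out it was -0.31 on the log2 scale with a smaller standard error (0.0311, adjusted p = 3.28e-05, edgeR). The call was lost without any 1 of the other 5 samples, where the log2 fold change was -0.23 (CON sample 2), -0.21 (CON sample 3), -0.23 (RA sample 1), -0.27 (RA sample 2) and -0.26 (RA sample 3), and in limma fits on log2 FPKM, at -0.24.

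Crtapl1 (ENSRNOG00000009878) had the largest change of the 10. Crtap is the scaffold of the prolyl 3-hydroxylation complex and has no hydroxylase activity of its own. Its level was 84.1, 69.7 and 68.0 FPKM in CON samples 1, 2 and 3, and 58.7, 55.3 and 53.9 FPKM in RA samples 1, 2 and 3. CON sample 1 was the highest of the 6, and the groups did not overlap. The means were 73.9 ± 8.87 FPKM in CON and 56.0 ± 2.48 in RA, and the log2 fold change was -0.41 (standard error 0.0871, 95% confidence interval -0.61 to -0.21, adjusted p = 0.0202, edgeR with Benjamini-Hochberg adjustment). Among all genes tested, 8.79% had a more negative log2 fold change. It was -0.31 without CON sample 1 and still called (adjusted p = 0.00115, edgeR). The call was lost without RA sample 1 (-0.44), RA sample 2 (-0.41) or RA sample 3 (-0.39). A further identifier of the same symbol had between 5 and 68 counts per sample and was not tested, and reads could be split between the pair of gene models by the counting. With both summed, the log2 fold change was -0.40 (adjusted p = 0.0212, edgeR).

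Ppib (ENSRNOG00000016781), the proline isomerase of the same complex, was at 286, 276 and 275 FPKM in CON samples 1, 2 and 3 and at 261, 279 and 266 FPKM in RA samples 1, 2 and 3. The groups overlapped, since RA sample 2 lay above CON samples 2 and 3. For Ppib the log2 fold change came to -0.07 (standard error 0.0561, 95% confidence interval -0.20 to 0.06, adjusted p = 0.514, edgeR), and it ran from -0.098 without RA sample 2 to -0.039 without RA sample 1. P3h1, the hydroxylase of the complex and outside the 10, was named because a ratio with Crtapl1 was planned. Its mean was 115 ± 4.68 FPKM in CON and 98.5 ± 1.20 in RA, and it was called lower at -0.24 (adjusted p = 0.0386, edgeR). This call was lost without any 1 sample other than CON sample 1, with log2 fold changes of -0.20 to -0.25 in those 5 fits and -0.27 without CON sample 1. In the mean values of both groups Ppib was the most abundant of the 3 components, P3h1 the second and Crtapl1 the lowest.

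**Figure D1:**
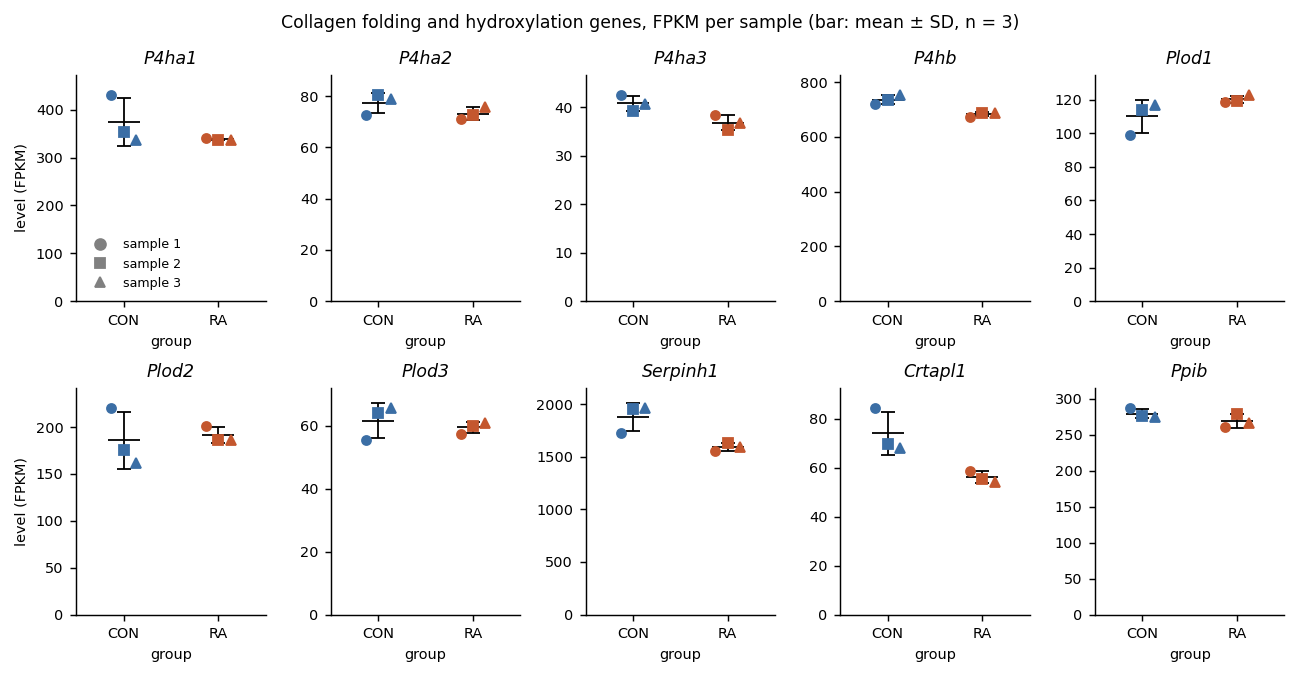
The level of each of the 10 genes is plotted in FPKM on axes that start at 0, with 1 point per sample, a marker shape for the sample number and a bar for the mean ± SD (n = 3 per group). RA points of Serpinh1 (1551 to 1629) and Crtapl1 (53.9 to 58.7) lie below all CON points, and CON sample 1 lies away from the other CON samples for P4ha1, Plod1, Plod2, Plod3, Serpinh1 and Crtapl1.

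The subunits of prolyl 4-hydroxylase did not pass the test. P4ha1 (ENSRNOG00000050655), the main catalytic subunit in most cells, was at 430.3, 354 and 336 FPKM in CON samples 1, 2 and 3 and at 339.9, 337 and 337 FPKM in RA samples 1, 2 and 3. CON sample 1 was 1.25 times the mean of the other CON samples, and the RA samples lay between CON samples 2 and 3. For P4ha1 the log2 fold change came to -0.15 (standard error 0.0862, 95% confidence interval -0.35 to 0.04, adjusted p = 0.320, edgeR), and -0.04 without CON sample 1.

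P4ha2 (ENSRNOG00000033663), a second catalytic subunit known from cartilage, was at 72.9, 80.4 and 78.9 FPKM in CON samples 1, 2 and 3 and at 71.0, 72.5 and 76.0 FPKM in RA samples 1, 2 and 3. The groups overlapped at CON sample 1, and the log2 fold change was -0.09 (95% confidence interval -0.24 to 0.05, adjusted p = 0.420, edgeR). P4ha3 (ENSRNOG00000017118), the third catalytic subunit, was at 42.5, 39.3 and 40.6 FPKM in CON and at 38.4, 35.4 and 36.8 FPKM in RA, in sample order. Its groups did not overlap, by a gap of under 1 FPKM, but the log2 fold change of -0.16 (95% confidence interval -0.30 to -0.02) did not pass (adjusted p = 0.171, edgeR).

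P4hb (ENSRNOG00000036689), which keeps the catalytic subunits soluble and also acts alone as a disulfide isomerase, was the second most abundant of the 10 genes. It was at 721, 735 and 753 FPKM in CON samples 1, 2 and 3 and at 673, 688 and 689 FPKM in RA samples 1, 2 and 3. All RA values lay below all CON values. The log2 fold change of -0.12 (standard error 0.0474, 95% confidence interval -0.23 to -0.01) did not pass the test (adjusted p = 0.169, edgeR). When CON sample 1 was left out it was -0.14 with a standard error of 0.0343, and P4hb was then called lower (adjusted p = 0.0171, edgeR).

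The proportions of the catalytic subunits overlapped between the groups. P4ha1 made up 78.9%, 74.7% and 73.7% of the summed FPKM of the 3 P4ha genes in CON and 75.7%, 75.8% and 74.9% in RA, in sample order. The share of P4ha2 was 15.9 ± 2.20% in CON and 16.3 ± 0.538% in RA, and that of P4ha3 was 8.34 ± 0.565% and 8.23 ± 0.296%. The summed P4ha level was 0.669 ± 0.0787 times that of P4hb in CON and 0.656 ± 0.0101 times in RA. The ranges overlapped for all of these and for the ratios of P4ha1 to P4ha2, P4ha3 to P4ha1 and P4ha3 to P4ha2, whose log2 changes were -0.05, -0.01 and -0.07, beside -0.02 for summed P4ha to P4hb. Their signs turned when single samples were left out: to 0.095 for P4ha1 to P4ha2, 0.0058 for P4ha3 to P4ha2 and 0.071 for summed P4ha to P4hb without CON sample 1, and to 0.056 and 0.014 for P4ha3 to P4ha1 without CON sample 3 and RA sample 2.

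The lysyl hydroxylases did not pass the test either, and differed among themselves in where CON sample 1 lay. Plod1 (ENSRNOG00000007763), which acts on lysines of the helix, was at 98.9, 114 and 117 FPKM in CON samples 1, 2 and 3 and at 119, 119 and 123 FPKM in RA samples 1, 2 and 3. It was the only one of the 10 whose RA values all lay above all CON values, and after normalization with the TMM method its groups overlapped. Plod1 had a log2 fold change of 0.11 (95% confidence interval -0.06 to 0.29, adjusted p = 0.403, edgeR), 0.04 without CON sample 1 and 0.17 without CON sample 3.

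Plod2 (ENSRNOG00000030183), the hydroxylase of the telopeptide lysines at the ends of the chain, was at 219.8, 176 and 162 FPKM in CON samples 1, 2 and 3 and at 201, 186 and 186 FPKM in RA samples 1, 2 and 3. CON sample 1 was the highest of the 6 and CON samples 2 and 3 the lowest. With all samples the log2 fold change was 0.03 (standard error 0.102, 95% confidence interval -0.21 to 0.26, adjusted p = 0.895, edgeR). Leaving out CON sample 1 gave 0.16 (standard error 0.0467), and Plod2 was then called higher (adjusted p = 0.0347, edgeR). It was -0.015 without CON sample 2, -0.053 without CON sample 3 and -0.0022 without RA sample 1, so its sign depended on which samples were included.

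Plod3 (ENSRNOG00000001417), which also transfers sugars to hydroxylysine, was at 55.3, 64.2 and 65.5 FPKM in CON samples 1, 2 and 3 and at 57.5, 60.0 and 60.8 FPKM in RA samples 1, 2 and 3. CON sample 1 was the lowest of the 6 and the RA samples lay between it and the other CON samples. Plod3 had a log2 fold change of -0.07 (95% confidence interval -0.25 to 0.11, adjusted p = 0.654, edgeR). With CON sample 1 left out it was -0.14 and did not pass either (adjusted p = 0.0845, edgeR). With each of the other samples left out it ran from -0.08 to -0.0099, nearest to 0 without CON sample 3 and next without RA sample 1 (-0.036).

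Plod2 was the main lysyl hydroxylase transcript, with 58.8%, 49.7% and 47.0% of the family's summed FPKM in CON and 53.3%, 51.0% and 50.4% in RA, in sample order. The ratio of Plod3 to Plod1 varied least in CON of the 12 ratios computed. It was 0.559, 0.562 and 0.560 in CON samples 1, 2 and 3, so CON sample 1 did not stand apart in it, and 0.485, 0.505 and 0.496 in RA samples 1, 2 and 3. The ratio was lower in each RA sample than in each CON sample, with a log2 change of -0.18 and an exact two-sided permutation p of 0.1, the smallest that 3 against 3 samples allow (adjusted p = 0.24 over 12 ratios). Neither gene alone was called, and this change in proportion did not pass either. It stayed between -0.16 and -0.19 with each sample left out. Plod2 to Plod1 (log2 change -0.08) and Plod2 to Plod3 (0.10) overlapped between the groups, and turned to 0.12 without CON sample 1 and to -0.037 without CON sample 3.

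Counted over the 10 genes, RA values lay wholly below CON values in FPKM for 4 (P4ha3, P4hb, Serpinh1 and Crtapl1), as for 13.3% of all genes tested, and wholly above for 1 (Plod1), as for 18.9%. In TMM-normalized CPM, counts scaled to the sample total, P4ha1 joined the first group to make 5 (15.1% of all genes) and none lay wholly above. When CON sample 1 was left out, 3 genes were called lower (P4hb, Serpinh1 and Crtapl1), beside 7.80% of all genes, and 1 was called higher (Plod2), beside 8.65%. The coefficient of variation was larger in CON than in RA for 8 of the 10 genes, as for 71.6% of all genes. CON sample 1 was the highest of the CON samples for P4ha1, P4ha3, Plod2, Crtapl1 and Ppib and the lowest for the other 5.

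**Figure D2:**
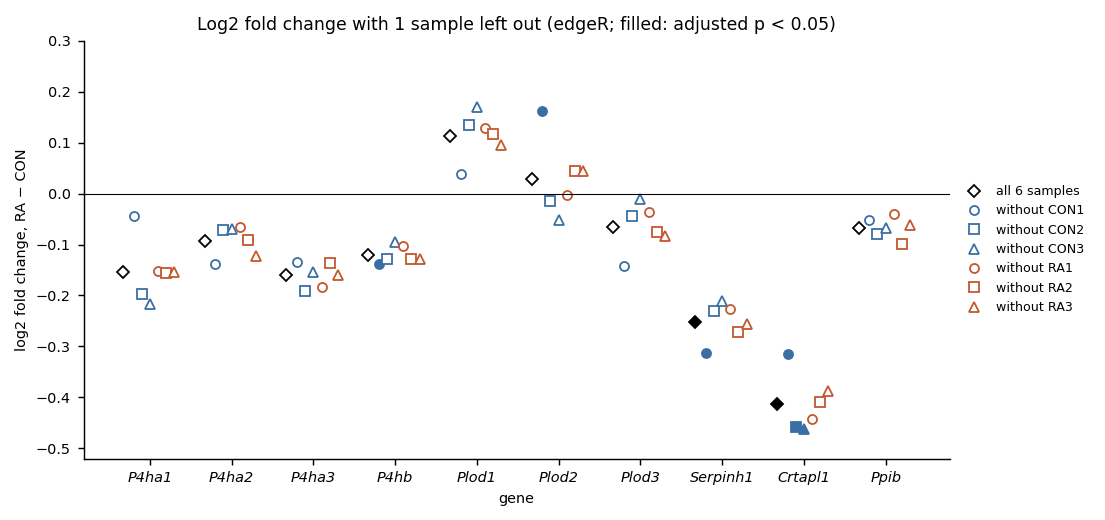
The log2 fold change (RA minus CON, y axis) of each gene is plotted from the fit to all 6 samples (diamond) and from the 6 fits that each left out 1 sample, with filled symbols where the adjusted p was below 0.05. Serpinh1 and Crtapl1 lie below 0 in all fits, from -0.21 to -0.31 and from -0.31 to -0.46, while Plod2 lies on both sides of 0, from -0.05 to 0.16.

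The order of the levels was much the same in both groups. In CON it ran from Serpinh1 through P4hb, P4ha1, Ppib, Plod2, Plod1, P4ha2, Crtapl1 and Plod3 to P4ha3, by mean FPKM. The values of neighbours in this order did not overlap except for P4ha2 and Crtapl1. In RA, Crtapl1 moved below Plod3, and these neighbours were the only ones that overlapped. The genes spanned ranks 22 to 1878 of 13438 in mean CON level, so each was well expressed. Together they took 0.824% to 0.848% of all counts in CON and 0.748% to 0.764% in RA.

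Cartilage collagen chains, which this machinery folds, were mostly lower in RA. All 8 cartilage collagen chains were called, 7 lower and 1 higher, with a median log2 fold change of -0.73. Col27a1, a minor fibril chain, had -1.43, Col9a1 had -0.86 and Col2a1, the chain of type II collagen, had -0.78. Col10a1, a hypertrophic chain, was called higher at 2.16 from a low level, 0.198 ± 0.0809 FPKM in CON against 0.890 ± 0.283. These 4 kept their calls with each sample left out, when 5 to 7 chains were called lower. Col9a3 lost its call without any 1 sample other than CON sample 1 and in both limma fits, and Col11a2 without CON sample 2 or RA sample 1 or 2. Of 8 tested fibroblastic chains only Col12a1 was called in edgeR with all samples, beside 9.82% of all genes. It was at -0.55 and was also called in each fit with 1 sample left out. The median of the 8 was -0.09. DESeq2 and the fit with a replicate block each called 2 lower, Col12a1 and Col6a1 (-0.21). Leaving out CON sample 1, 4 of these 8 were called lower (Col5a1, Col6a1, Col6a2 and Col12a1), beside 7.80% of all genes. The median was then -0.16, while it was -0.03 without CON sample 3. Summed over the chains, the cartilage collagens went from 8621 ± 1132 to 5225 ± 167 FPKM. The 8 fibroblastic collagens went from 7119.5 ± 848 to 7324 ± 166 FPKM. Col1a2 and Col6a3 were not analysed here, so this sum and the ratio to it leave them out. The 10 folding and hydroxylation genes went from 3819 ± 69.8 to 3420.1 ± 45.9 FPKM.

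The ratio of the 10 genes to the cartilage collagens was 0.511, 0.422 and 0.410 in CON samples 1, 2 and 3 and 0.670, 0.648 and 0.647 in RA samples 1, 2 and 3. It was 1.47-fold higher in RA, a log2 change of 0.56 that ran from 0.50 to 0.65 with each sample left out. The ratio to the fibroblastic collagens was 0.605, 0.526 and 0.492 in CON samples 1, 2 and 3 and 0.472, 0.465 and 0.464 in RA samples 1, 2 and 3, lower in each RA sample. Both ratios had an exact two-sided permutation p of 0.1, the smallest possible here (adjusted p = 0.24 over 12 ratios). CON sample 1 was the highest CON sample in both, so the first gap was narrowed by it and the second widened, from a log2 change of -0.12 without it to -0.21 with it. Serpinh1 makes up a large part of the sum.

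The same p held for the ratios of Serpinh1 and Crtapl1 to Ppib, which did not overlap between groups either. Serpinh1 to Ppib was 6.03, 7.08 and 7.13 in CON samples 1, 2 and 3 and 5.94, 5.84 and 6.01 in RA samples 1, 2 and 3, so CON sample 1 lay almost at the RA level. Crtapl1 to Ppib was 0.294, 0.252 and 0.247 in CON samples 1, 2 and 3 and 0.225, 0.198 and 0.203 in RA samples 1, 2 and 3. Crtapl1 to P3h1 was 0.762, 0.606 and 0.567 in CON samples 1, 2 and 3 and 0.603, 0.555 and 0.548 in RA samples 1, 2 and 3, and its groups overlapped (exact permutation p = 0.2, adjusted p = 0.40). Its log2 change of -0.17 was -0.045 without CON sample 1 and -0.26 without CON sample 3. In all, 5 of the 12 ratios showed no overlap between the groups, and with a smallest p of 0.1 none could pass.

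**Figure D3:**
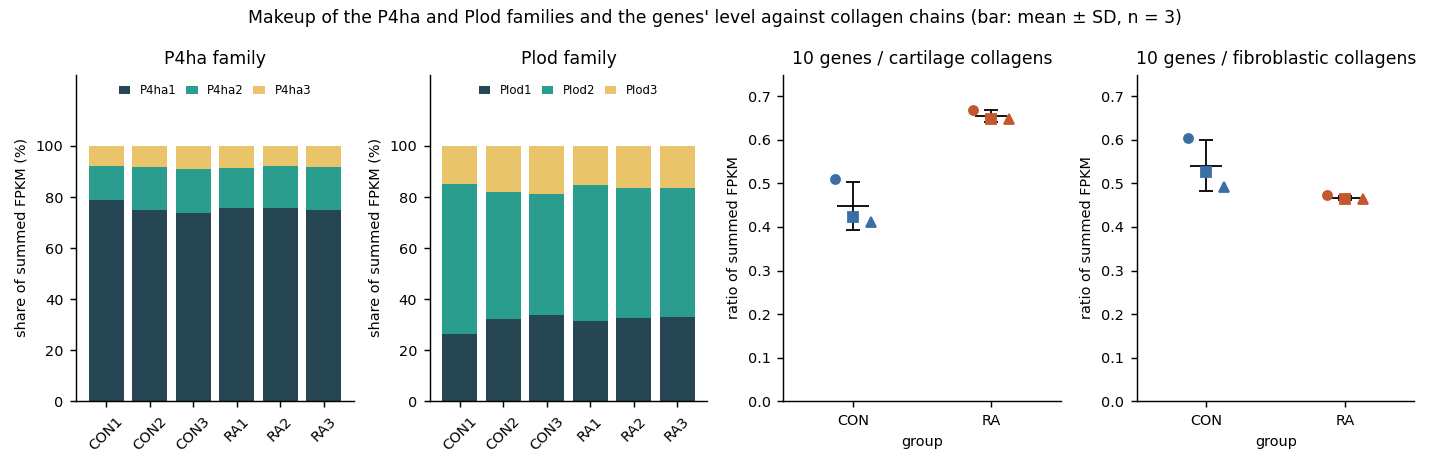
Stacked bars give the share (%) of each gene in the summed FPKM of the P4ha and of the Plod family in each sample, and points give the summed FPKM of the 10 genes divided by that of the cartilage or fibroblastic collagen chains, with mean ± SD (n = 3). P4ha1 holds 73.7% to 78.9% of its family in all samples, and the ratio to cartilage collagens is 0.410 to 0.511 in CON and 0.647 to 0.670 in RA.

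Among the other collagen modifiers, 5 of 11 were called, all lower, beside 4.50% of all genes called lower. All 11 log2 fold changes lay below 0 (median -0.27), beside 51.1% of all genes. The largest fall was that of Colgalt2, which adds galactose to hydroxylysine, with means of 18.2 ± 1.91 FPKM in CON and 4.87 ± 0.112 in RA and a change of -1.91 on the log2 scale (adjusted p = 2.28e-05, edgeR). The more abundant galactosyltransferase Colgalt1 was at 87.1 ± 7.60 and 84.6 ± 1.61 FPKM (log2 fold change -0.06, adjusted p = 0.700, edgeR). The ER proline isomerases Fkbp14 (-0.54), Fkbp7 (-0.46) and Fkbp9 (-0.31) were called as well as P3h1, and Fkbp10, the most abundant of them, was not (-0.14, adjusted p = 0.297, edgeR). Fkbp7 was not called without RA sample 3 (-0.46), nor Fkbp9 without RA sample 1 (-0.29), 2 (-0.33) or 3 (-0.30). Without CON sample 1, 8 of the 11 were called, all lower, beside 7.80% of all genes, with P3h3, P3h4 and Fkbp10 added.

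Of the other cyclophilins, proline isomerases outside the collagen complex, 0 of 7 were called in edgeR, in DESeq2 or in any other fit, 1 had an unadjusted p below 0.05, beside 24.0% of all genes, and the median was -0.11 with all samples, 0.02 without CON sample 1 and -0.20 without CON sample 3. General ER chaperones, disulfide isomerases and genes of the unfolded protein response (UPR) formed a list of 19. Of these, 2 were called, both lower, beside 9.82% of all genes called and 4.50% called lower. These were the transcription factors Atf4 (-0.31), which kept its call with each sample left out, and Ddit3 (-0.39), which lost it without CON sample 3 (-0.42) or RA samples 1 (-0.38), 2 (-0.44) or 3 (-0.35). The largest change of the list was that of the disulfide isomerase Pdia5, at 11.6 ± 2.43 FPKM in CON and 7.78 ± 0.954 in RA. It just missed the call (log2 fold change -0.58, adjusted p = 0.0533, edgeR) and was called lower in DESeq2, with upper-quartile factors, without the filter on low counts, with a replicate block and without CON sample 1 or 3. The chaperones Hspa5 (-0.21, adjusted p = 0.141, edgeR) and Calr (-0.08, adjusted p = 0.494, edgeR), chosen after their values were seen, did not pass. Of the 19, 18 lay below 0, beside 51.1% of all genes, with a median of -0.11. Without CON sample 1 the median was -0.05, while 5 were called lower and 1 higher, beside 7.80% and 8.65% of all genes.

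**Figure D4:**
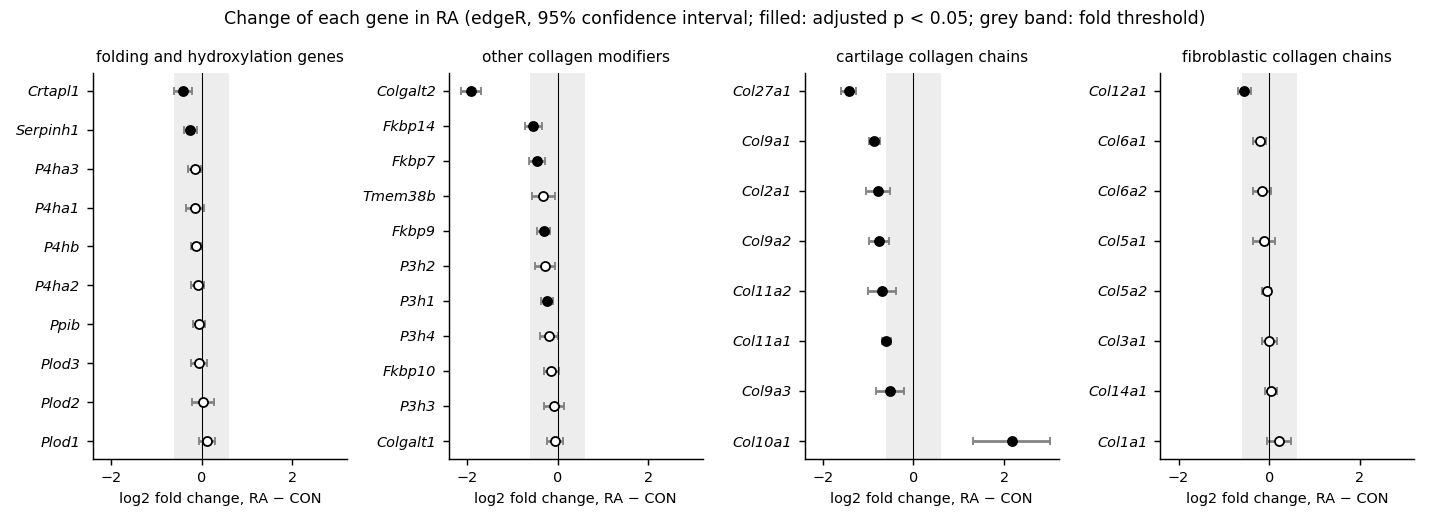
The log2 fold change (RA minus CON, x axis) of each tested gene of 4 lists is plotted with its 95% confidence interval from edgeR, filled where the adjusted p was below 0.05, with a grey band from -0.58 to 0.58. The 10 folding and hydroxylation genes lie between -0.41 and 0.11, inside the band, while 6 of the 8 cartilage chains lie beyond its lower edge and Colgalt2 lies at -1.91.

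All 12 tested genes that export procollagen from the ER lay below 0 (median -0.23), beside 51.1% of all genes. Of the 12, 4 were called, all lower, beside 4.50% of all genes called lower. They were Mia2 (-0.49), a cargo receptor at ER exit sites, Creb3l2 (-0.44), a transcription factor of secretory genes, Kdelr3 (-0.30), a receptor that returns ER proteins, and Sec23a (-0.25), a coat subunit of export vesicles. Creb3l2 kept its call with each sample left out. Mia2, Kdelr3 and Sec23a each lost theirs without CON sample 2 (-0.52, -0.33 and -0.26), RA sample 1 (-0.54, -0.30 and -0.25), RA sample 2 (-0.45, -0.30 and -0.26) or RA sample 3 (-0.48, -0.30 and -0.25). DESeq2 and the fit with a replicate block each called 5 lower, with Kdelr2 (-0.23), a further such receptor, added. Without CON sample 1, 8 of the 12 were called lower, beside 7.80% of all genes.

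Outside the cell, collagen is trimmed by propeptidases and cross-linked by lysyl oxidases, which act on the lysines that Plod enzymes hydroxylate. This list had 3 of 10 called higher and 1 lower, beside 9.82% of all genes called and 4.50% called lower. Its median was 0.15, or 0.07 without CON sample 1. Loxl1 rose from 77.3 ± 18.7 to 149 ± 5.60 FPKM (log2 fold change 0.93). Lox fell from 294 ± 13.1 to 193 ± 8.97 FPKM (log2 fold change -0.62), and both kept their calls with each sample left out. Loxl4 (0.32) and the propeptidase Adamts14 (0.41) were called higher. Loxl4 lost its call without RA sample 1 (0.31), 2 (0.32) or 3 (0.35), and Adamts14 without CON sample 2 (0.45) or RA sample 1 (0.39), 2 (0.42) or 3 (0.41).

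Hypoxia-inducible genes were listed because P4ha1, P4ha2 and Plod2 are known targets of hypoxia-inducible factor. Of 13, 1 was called higher, the glycolytic enzyme Pgk1 (0.20), and 1 lower, the carbonic anhydrase Ca9 (-0.30), with a median of 0.09. Over all genes, 9.82% were called and 4.50% were called lower. DESeq2 and the fit with a replicate block each called 2 higher, Pgk1 and the glucose transporter Slc2a1 (0.25). Without CON sample 1, 3 were called higher, beside 8.65% of all genes. These were Vegfa (0.26), an angiogenic growth factor, Slc2a1 (0.18) and Pgk1 (0.18). Pgk1 lost its call in 8 of 14 alternatives, among them the 5 fits that left out CON sample 2 (0.21) or 3 (0.22) or RA sample 1 (0.23), 2 (0.21) or 3 (0.18). The same 5 fits lost the call of Ca9, at -0.33, -0.27, -0.27, -0.31 and -0.34. The other 2-oxoglutarate hydroxylases had 0 of 5 called in edgeR, DESeq2 or any other fit and 1 with an unadjusted p below 0.05, beside 24.0% of all genes. Of 7 tested genes of proline supply, ascorbate uptake and zinc transport, 1 was called higher, the ascorbate transporter Slc23a2 (0.32), and 2 lower, with a median of 0.10 that turned to -0.02 without CON sample 1. The 2 were Pycr1 (-0.58), which makes proline, from 31.9, 47.0 and 47.2 FPKM in CON to 28.1, 28.7 and 28.3 FPKM in RA, and Prodh1 (-1.40), which degrades it and was under 1 FPKM in each sample. Pycr1 and Prodh1 lost the call without any 1 sample other than CON sample 1, with log2 fold changes of -0.48 to -0.59 and -1.20 to -1.53 in those 5 fits, and without CON sample 1 Pycr1 was at -0.75. Slc23a2 lost it when CON sample 2 (0.32) or RA sample 2 (0.29) or 3 (0.31) was left out.

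As a further check of the treatment, other retinoid response genes were DEGs and higher besides Cyp26b1. They included Cyp26a1 (log2 fold change 3.35), a second retinoic acid hydroxylase, Dhrs3 (0.63), a retinal reductase, and the receptor gene Rarb (1.43). Stra6, a retinol transporter (-0.44, adjusted p = 0.495, edgeR), and Crabp2, which carries retinoic acid to its receptors (0.40, adjusted p = 0.0859, edgeR), were not called, and DESeq2 called Crabp2 higher. Of the 6 retinoid response genes reported here, 4 were thus called higher and none lower. Rarb lost its call in the fits without 1 of CON samples 2 (1.40) and 3 (1.12) and of RA samples 1 (1.52), 2 (1.54) and 3 (1.19). None of the 10 collagen genes changed by as much as Dhrs3.

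The 5 tested genes whose log2 CPM over the 6 samples was most like that of Crtapl1, by Pearson's r, were Cd109 (0.999), Heatr3, Dipk2a, Has2 and AABR07019403.1 (0.996). The points are 6 samples in 2 groups, and CON sample 1 was the highest in each of these genes as in Crtapl1. Has2, which makes hyaluronan, was at 11.1, 8.81 and 8.41 FPKM in CON samples 1, 2 and 3 and at 7.22, 6.40 and 6.16 FPKM in RA samples 1, 2 and 3, a log2 fold change of -0.53.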

How the data were processed

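Poly(A) RNA libraries were made with a NEBNext Ultra kit and sequenced on an Illumina HiSeq instrument. The submitters' processing notes name HISAT2, HTSeq 0.13.5 and the build Rnor_6.0, and further settings, strand included, are not given in the sources used here. The authors deposited raw read counts per gene and FPKM values scaled to gene length and to the sample total. All columns belonged to the 6 samples.

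Counts were fitted with edgeR 4.0.16 in R 4.3.3 (glmQLFit and glmQLFTest, TMM, filterByExpr with a minimum count of 10, no covariates), with Benjamini-Hochberg adjustment over 13438 genes. Confidence intervals cover 95%. Where 158 identifiers shared a symbol with another, the one with the highest mean count was used. Ratios were formed per sample from FPKM and compared by exact two-sided permutation of samples (scipy 1.17.1). Alternatives were DESeq2 1.42.0, RLE and upper-quartile factors, no filter, a filter of 1 CPM in 3 samples, limma 3.58.1 on log2(FPKM + 0.1) or log2(FPKM + 1), a replicate block, each sample left out, and ratios of CPM. Summing both Crtapl1 identifiers was added after seeing the data. The fits were tested on simulated data with a smaller spread between samples than these data, so that test gives no error rate for the calls here.

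The genes, lists and tests were chosen with earlier results of these data known. Named genes were the 10 genes, up to 4 called genes per list with the largest change, Col2a1, the retinoid DEGs and the 5 genes most like Crtapl1; P3h1 was named for its ratio, and Colgalt1, Fkbp10, the additions in alternative fits, Slc2a1, Vegfa, Pdia5, Kdelr2, Stra6, Crabp2, the markers Tnnt3, Myod1, Alpl, Ibsp, Col14a1, Gsn and Clec3b and others so marked were chosen after their values were seen. Col1a2, Col6a3, Mia3, Sar1a, Pcolce2, Pepd, Ly6c, Myog and Pecam1 were not analysed here. Of the genes that the naming rule took, 1 is not reported here. Total counts were 29370025 to 38007486 per sample, where 3 counts correspond to 0.0789 to 0.102 CPM. These floors cover counting error only.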

Additional observations from a re-analysis of the deposited data

Results flagged for a closer look

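A second identifier of the symbol Crtapl1, ENSRNOG00000048343, was not part of any comparison because its counts were too low for the test. It had 5, 7 and 15 counts in CON samples 1, 2 and 3 and 9, 9 and 68 counts in RA samples 1, 2 and 3. The 68 counts of RA sample 3 stood above all CON samples, while the other RA samples lay within the CON range, so the difference belonged to 1 sample. The identifier that was tested had 2763 to 4392 counts in each sample. Which reads the counting gave to each of the pair was not tested.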

How the results depend on the processing

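Crtapl1 and Serpinh1 kept their direction in every alternative run, and the median log2 fold change of all genes stayed between -0.016 and 0.0097 in them. Of the 10 genes, 1 was called lower in the limma fits on log2(FPKM + 0.1) and log2(FPKM + 1), 0 to 3 with each sample left out, and 0 under the DEG rule or under an unadjusted p below 0.05 with the same fold. With each sample left out, 0 to 1 was called higher. Calls over 105 companion genes were 11 higher and 23 lower, and ran from 6 to 14 and from 12 to 36 with each sample left out. Calls over all genes were 1319 and ran from 657 (without RA sample 3) to 2242 (without CON sample 1), with 1727 by DESeq2. Ratio changes that turned sign were those of P4ha1 to P4ha2 (0.095), P4ha3 to P4ha2 (0.0058), summed P4ha to P4hb (0.071) and Plod2 to Plod1 (0.12) without CON sample 1, P4ha3 to P4ha1 without CON sample 3 (0.056) or RA sample 2 (0.014), and Plod2 to Plod3 without CON sample 3 (-0.037). Left-out ranges of these log2 changes were -0.14 to 0.095, -0.12 to 0.0058, -0.091 to 0.071, -0.22 to 0.12, -0.089 to 0.056 and -0.037 to 0.30, in this order. Plod2 ran from -0.053 to 0.16 and turned to -0.015, -0.053 and -0.0022 without CON sample 2, CON sample 3 and RA sample 1. Beyond the left-out samples, the call of Pgk1 was lost with RLE (0.20) or upper-quartile (0.19) factors or without the filter (0.20), those of Adamts14, Col9a3, Ddit3, Kdelr3 and Pycr1 in both limma fits, that of Mia2 in limma with 1 added (-0.45), and that of Rarb with upper-quartile factors (1.42), in limma with 0.1 added (1.16) and with the replicate block (1.46). The cause was not tested. Low genes were nearer 0 in limma with 1 added, which shrinks them by construction: Col10a1 was at 0.65, Cyp26a1 at 1.85, Prodh1 at -0.29 and Rarb at 0.40. The median of the 10 genes stayed between -0.14 and -0.08 in the 14 fits other than the one that summed both Crtapl1 identifiers.

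The deviations of same-numbered samples had correlations of 0.09, -0.01 and 0.01, beside -0.12 to 0.11 for pairs of different number. With 3 samples per group these values cannot show whether the numbers pair the samples, and the culture each came from is not given. With the replicate number as a block, 1595 genes were called, 2 of the 10 lower (Crtapl1 -0.41, Serpinh1 -0.25) and 0 higher, and 11 companion genes higher and 26 lower. The common biological coefficient of variation was 0.122 with 3 samples per group.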
